A study of Homo sapiens with 10 samples.

Results

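The unfolded protein response and the integrated stress response were described here through 44 genes of the deposited table, out of 62656 genes in all. The 44 genes were chosen by symbol, with earlier results of these data known, and each symbol was found exactly once. The choice went by what the genes are known to do, except for VLDLR-AS1, which was listed without a known role in either response. They comprised 4 genes of stress sensing (EIF2AK3, ERN1, ATF6 and XBP1), 6 transcription factors of the integrated stress response and 15 targets of ATF4. The others were 14 endoplasmic reticulum (ER) chaperones and folding enzymes, 4 genes of ER-associated degradation and 1 antisense RNA, VLDLR-AS1.

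PC3 is a human prostate cancer cell line of epithelial type, and GW3965 is a synthetic agonist of the liver X receptors (LXRs), nuclear receptors that sense oxysterols and switch on cholesterol efflux. The question was which transcripts changed when LXRs were activated in these cells. All cells were starved overnight and then kept for 24 h in RPMI-1640 with L-glutamine, either with 1 µM GW3965 (5 libraries) or with DMSO, its solvent (5 libraries). Starvation was thus shared by both groups, and no unstarved library and no library of a known ER stressor was analysed here. The libraries are numbered 1 to 5 within each group; the labels do not say whether the numbers are separate cultures, so that p-values measure only the spread between these libraries, which may be technical.

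When unfolded proteins build up in the ER, membrane sensors start the unfolded protein response. IRE1 (gene ERN1) splices XBP1 mRNA, ATF6 is cut to release a transcription factor, and PERK (gene EIF2AK3) phosphorylates eIF2α. Phosphorylation of eIF2α is shared with kinases that sense amino acid shortage, viral RNA or haem shortage, and the outcome, named the integrated stress response, is a general block of translation together with preferred translation of ATF4. XBP1 and ATF6 mainly drive chaperone and degradation genes, whereas ATF4 mainly drives genes of amino acid supply, redox balance and, with DDIT3 (CHOP), of recovery or death. Much of this response takes place in translation, protein cleavage and splicing, none of which a gene-level RNA value can show.

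The promoters were searched for elements through which these factors are known to act. RefSeq promoters (GRCh38.p14, 250 bases before to 50 after the start) were found for 40 of the 44 members and searched on both strands. PSPH, SHMT2, NUPR1 and PDIA3 were not matched. Some genes have more than 1 promoter, and a gene was counted where any of its promoters held the element. The ER stress element, searched as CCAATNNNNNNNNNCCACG, was held by 6 of 13 chaperone genes (CALR, CANX, CRELD2, HSP90B1, HSPA5 and PDIA6) and by XBP1. It was held by 0 of 13 ATF4 target genes and by 0.0916% of all 27305 genes with a promoter. The C/EBP-ATF element, searched as TGATGNAA, was held by 4 of 13 ATF4 target genes (ASNS, SLC3A2, SLC7A1 and CHAC1) and by ATF3, CEBPG and HERPUD1. It was held by 0 of 13 chaperone genes and by 4.46% of all genes with a promoter. The second ER stress element, ATTGGNCCACG, was found in HYOU1, SDF2L1 and HERPUD1 and in 0.0696% of all these genes. The unfolded protein response element, TGACGTGG, was found in HYOU1, where it overlaps the second ER stress element, and in 0.927% of all these genes. A match describes the letters and does not show that a factor binds there.

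The chaperone promoters with an ER stress element are represented by the following stretches, all 5′ to 3′ on the gene's strand, with the searched elements in capitals. HSPA5 is the usual marker gene of ER stress, with its element at position −66, where −1 is the base just before the start (chr9:125241344-125241423, minus strand). CALR is the member with the highest level (chr19:12938379-12938458, plus strand, element at −225 on the opposite strand). HYOU1 carries 2 overlapping kinds of element from position −188 (chr11:119057319-119057398, minus strand). HSP90B1 has 2 ER stress elements, at −194 (chr12:103930211-103930239, plus strand) and at −89 (chr12:103930316-103930344), of which only the elements with 5 bases on each side are given because the stretch lies in an annotated exon.
HSPA5: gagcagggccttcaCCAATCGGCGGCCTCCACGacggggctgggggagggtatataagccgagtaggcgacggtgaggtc
CALR: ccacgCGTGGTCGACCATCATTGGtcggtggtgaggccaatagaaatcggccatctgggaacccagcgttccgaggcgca
HYOU1: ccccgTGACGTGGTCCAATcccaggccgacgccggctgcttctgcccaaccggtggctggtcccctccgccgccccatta
HSP90B1 at −194: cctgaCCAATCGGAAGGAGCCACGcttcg
HSP90B1 at −89: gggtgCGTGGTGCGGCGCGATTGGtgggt

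The ATF4 side is represented by ASNS, the textbook case of the element (chr7:97872464-97872481, minus strand, at −68), by CHAC1 (chr15:40953257-40953274, plus strand, at −209 on the opposite strand) and by the transcription factor CEBPG (chr19:33374033-33374112, plus strand, at −42). For ASNS and CHAC1 only the element with 5 bases on each side is given, since the stretch lies in an annotated exon. HERPUD1 is shown because its promoter held both kinds of element within 80 bases, a C/EBP-ATF element at −176 on the opposite strand and a second ER stress element at −117 (chr16:56931961-56932040, plus strand).
ASNS: aggcaTGATGAAActtcc
CHAC1: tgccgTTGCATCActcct
CEBPG: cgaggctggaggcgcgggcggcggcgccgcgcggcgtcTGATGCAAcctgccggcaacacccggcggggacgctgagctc
HERPUD1: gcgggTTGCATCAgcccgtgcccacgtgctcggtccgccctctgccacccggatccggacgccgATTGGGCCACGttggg

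The values are RPKM, in which reads are divided by a length for each gene and by a factor for each library. For 9 of the 44 members the length recovered from the deposited values was 1.64 to 3.81 times the exon length in GENCODE 29 (6530 against 3908 bases for HSPA5), so levels are compared between libraries and their order between genes depends on the gene model. Whole reads could be recovered from them, 30612230 to 39387348 per library in DMSO and 30431690 to 41638859 in GW3965. 7SL RNAs took 12.0% to 23.2% of the reads of a library. The epithelial keratins KRT8 (36.6 RPKM) and KRT18 (49.6 RPKM) were well expressed, EPCAM was at 1.73 RPKM and CDH1 at 0.285 RPKM. KLK3, which PC3 is known to lack, was at 0 in every library. Of 6 markers of other cells, only PECAM1 (0.604 RPKM) passed 0.5 RPKM. The LXR targets ABCA1 and ABCG1, cholesterol exporters, gave the treatment check. ABCA1 went from 3.43 ± 1.34 RPKM in DMSO to 16.5 ± 2.37 RPKM in GW3965 (SD, n = 5 each), a log2 fold change of 2.29 (limma adjusted p = 0.00063), and ABCG1 gave 2.13 (adjusted p = 0.000124), with no overlap between the groups for either.

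A gene was tested where its mean over the 10 libraries reached 0.5 RPKM, which 20402 genes and 41 of the 44 members did. ATF3, ASNS and VLDLR-AS1 lay below. CALR, a calcium-binding chaperone of the ER lumen, had the highest mean, 381 RPKM as deposited, and was also highest per GENCODE 29 exon length. HSPA5 (BiP, the main ER chaperone of the HSP70 family) had a mean of 56.1 RPKM, PDIA4 of 56.4 RPKM, ATF4 of 45.3 RPKM and CANX of 42.5 RPKM. Per GENCODE 29 exon length, HSPA5 and CANX lay at 93.8, PDIA4 at 56.7 and ATF4 at 47.1 on the same scale, so the order of these genes changed with the gene model. Reads that may belong to near-identical copies bear on a few levels: 2 ATF4 pseudogenes listed with 24.4% and 20.6% of the reads of ATF4, and PDIA3P1 with 36.1% of those of PDIA3. The sensors ERN1 and EIF2AK3 had means of 1.68 and 1.19 RPKM.

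**Figure D1:**
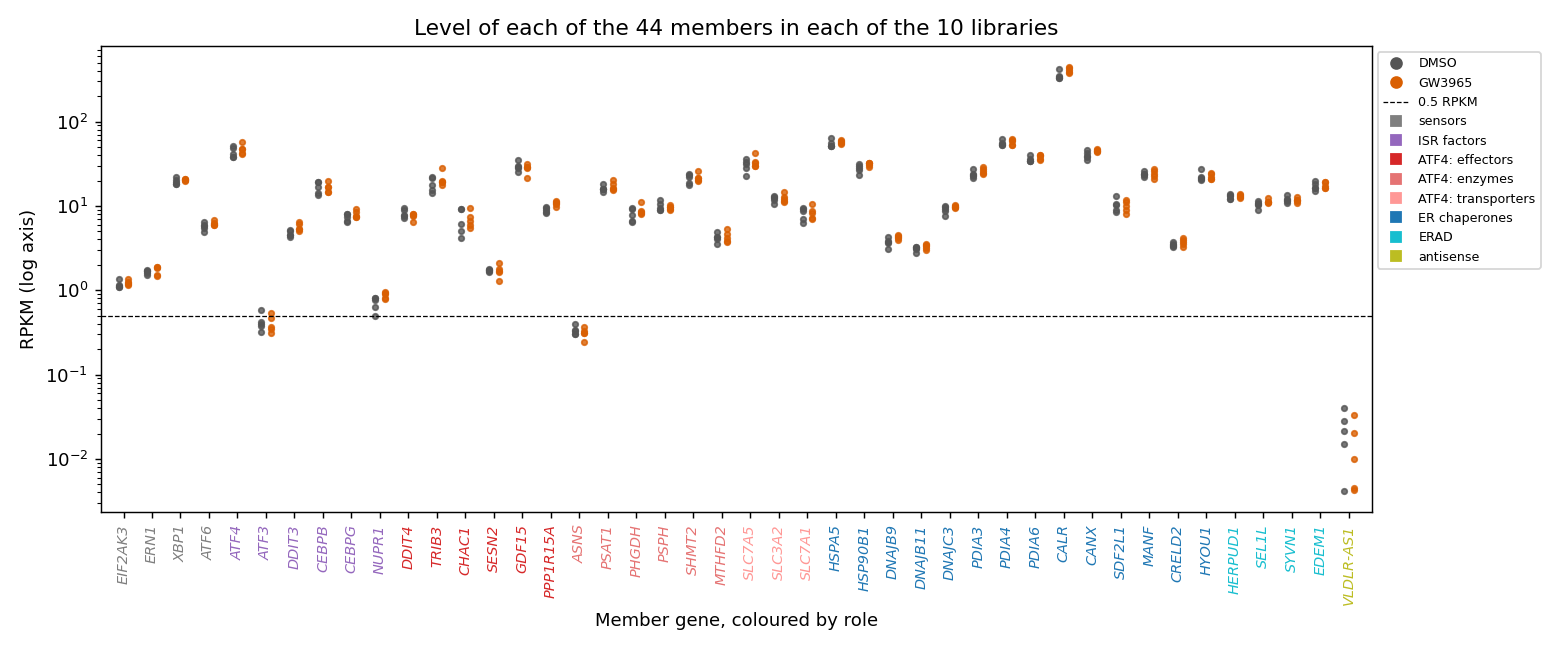
RPKM on a log axis (vertical) for each of the 44 members (horizontal, coloured by role), with 1 point for each of the 5 DMSO and 5 GW3965 libraries and a dashed line at the 0.5 RPKM limit for testing. CALR stands alone at the top, and ATF3, ASNS and VLDLR-AS1 lie below the line on average.

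At an adjusted p under 0.05 (limma on log2(RPKM + 0.1), Benjamini-Hochberg over all 20402 genes), 0 of the 41 members tested were called in GW3965 against DMSO, where 0.157% of all genes were. The lowest adjusted p was 0.255, for PPP1R15A. At an unadjusted p under 0.05 the count was 6 of 41 members, or 14.6%. The share was 6.99% of all genes tested and 7.86% of the 7659 with a mean of at least 5 RPKM. The count was 3 without DMSO library 2 and 3 without GW3965 library 4. All 6 were higher in GW3965, a direction in which 4.64% of all genes stood at this level, and 495 of the 7659. In no member were all 5 GW3965 libraries above all 5 DMSO libraries, as they were for 1.35% of all genes. The members are co-regulated and are not independent of each other, so that these shares describe the list and test nothing. Voom on the recovered reads also called 0 members, with 7 at an unadjusted p under 0.05.

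The 95% intervals limited the differences in both directions, each for 1 member at a time and by the spread between these libraries alone. The 95% interval of the fold change stayed within 1.5-fold up or down for 39 of the 41 members, the exceptions being CHAC1 and NUPR1, and within 2-fold for all 41. In bulk RNA of this kind, a change in some of the cells and a smaller change in all of them cannot be told apart.

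**Figure D2:**
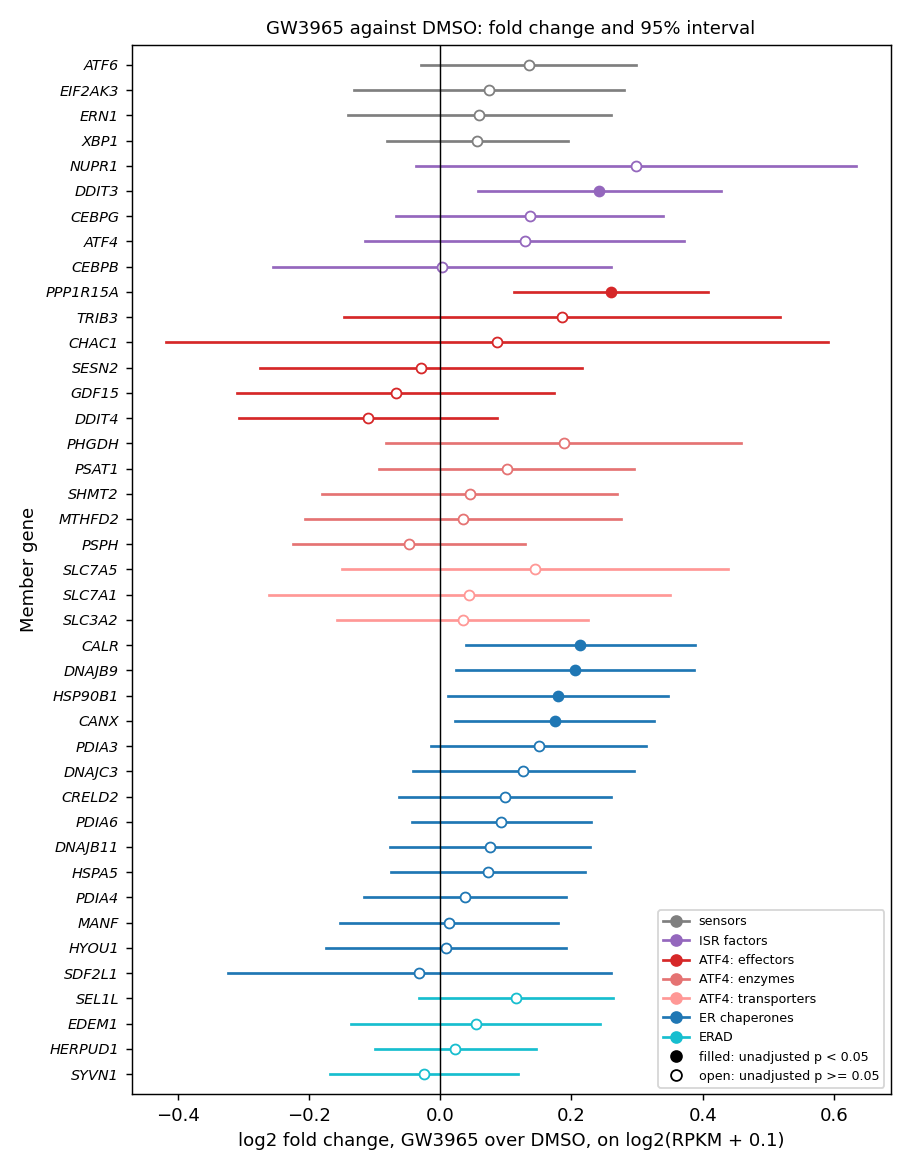
Log2 fold change of GW3965 over DMSO on log2(RPKM + 0.1) (horizontal) with its 95% interval for each of the 41 members tested (vertical), grouped and coloured by role; filled points have an unadjusted p under 0.05. The 6 filled points, 4 of them chaperones, lie between 0.17 and 0.26, and no member was called after adjustment.

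Among the sensors and XBP1, values moved little. ATF6, the factor cut in the Golgi, lay between 4.90 and 6.45 RPKM in DMSO and between 5.95 and 6.77 RPKM in GW3965. Only GW3965 library 1 lay above every DMSO library. It gave a log2 fold change of 0.13 (95% interval −0.03 to 0.30, adjusted p = 0.792). XBP1, the substrate of IRE1, had 19.6 ± 1.70 RPKM in DMSO and 20.4 ± 0.525 RPKM in GW3965 (SD, n = 5 each), a log2 fold change of 0.06. ERN1 and EIF2AK3 gave 0.06 and 0.07. For none of the 4 did the groups separate. Spliced and unspliced XBP1 are summed in these values.

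ATF4 mRNA (chr22:39519695-39522685; gene coordinates here and below are those of GENCODE 29 on GRCh38) was at 38.1, 48.3, 50.7, 41.3 and 37.9 RPKM in DMSO libraries 1 to 5 and, in the same order, at 47.9, 46.7, 41.4, 42.8 and 57.8 RPKM in GW3965. GW3965 library 5 stood above every other library, and the other 4 lay within the range of DMSO. The log2 fold change was 0.13 (95% interval −0.11 to 0.37, adjusted p = 0.897). ATF4 is controlled mainly in translation, so its mRNA is no measure of its activity.

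DDIT3, which encodes the pro-apoptotic factor CHOP (chr12:57516588-57521737), was at 4.54, 5.11, 5.16, 4.54 and 4.32 RPKM in DMSO and at 6.07, 6.49, 5.27, 5.06 and 5.27 RPKM in GW3965. In 4 of the 5 GW3965 libraries it lay above all DMSO libraries, while library 4 fell within their range. The log2 fold change was 0.24 ± 0.08 (SE), with an adjusted p of 0.532 by limma and an exact two-sided permutation p of 0.0238 over all labellings of the libraries. This permutation p, whose smallest possible value is 0.00794, was computed for each of the 44 members and is not adjusted for their number. By the same test it was 0.0476 for NUPR1, 0.286 for HSPA5, 0.302 for ATF4 and 0.325 for TRIB3. No share of all genes is given for it, so it adds no support to the limma result. MARS, a gene on the opposite strand with 27.2% of the exon bases of DDIT3 in common, had 40057 reads over the 10 libraries against 2428 for DDIT3. The kit keeps the strand, but the strand setting of the counting is not given in the sources used here.

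The 5 factors of this group that were tested all had fold changes above 0, with a median of 0.14, but that of CEBPB turned below 0 under quantile normalization and in voom on the recovered reads. NUPR1, a small stress-induced chromatin protein, had the highest fold change of all members, 0.30, but also a wide interval (−0.04 to 0.63, adjusted p = 0.764); it was at 0.634 and 0.493 RPKM in DMSO libraries 4 and 5 and at 0.762 to 0.956 RPKM in all others. CEBPG, a partner of ATF4 in dimers, gave 0.14 (adjusted p = 0.847), and CEBPB gave 0.00, with 13.4 to 19.2 RPKM in DMSO and 14.7 to 19.6 RPKM in GW3965. ATF3, a stress-induced repressor, had a mean below the 0.5 RPKM limit for testing. It was at 0.418 ± 0.0970 RPKM in DMSO and 0.407 ± 0.0953 RPKM in GW3965 (SD, n = 5 each, exact permutation p = 0.873), with 39 to 99 reads a library.

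Of the 15 ATF4 targets, 14 were tested, 0 were called and 1 had an unadjusted p under 0.05. That was 7.14% of the 14, near the 6.99% of all genes tested. The median log2 fold change of the 14 was 0.04, with 10 higher and 4 lower in GW3965, where all genes tested had a median of 0.00. PPP1R15A (GADD34), the phosphatase subunit that reverses eIF2α phosphorylation (chr19:48872392-48876057), was at 8.39, 9.56, 8.89, 9.63 and 8.25 RPKM in DMSO and at 10.7, 9.60, 10.8, 11.2 and 11.4 RPKM in GW3965. All GW3965 libraries but library 2 lay above every DMSO library, and library 2 was just below the highest of them. The log2 fold change was 0.26 ± 0.07 (SE; 95% interval 0.11 to 0.41), a 1.20-fold difference, with an adjusted p of 0.255 by limma and an exact permutation p of 0.0159. It was the single member called under any alternative, with the first principal component as a covariate (adjusted p = 0.0296; range of the adjusted p over 21 alternatives 0.0296 to 0.565).

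The 6 stress effectors stood on both sides of 0, with 3 higher and 3 lower in GW3965. TRIB3, a pseudokinase that dampens ATF4 activity, was at 14.4, 21.7, 22.2, 17.5 and 15.5 RPKM in DMSO and at 19.6, 19.3, 19.0, 17.8 and 28.0 RPKM in GW3965. Its GW3965 library 5 stood far above the other 4, which lay within the range of DMSO. The log2 fold change of 0.19 (adjusted p = 0.880) became 0.07 without that library. CHAC1, which degrades glutathione, varied most of all the members tested, from 4.17 to 9.29 RPKM in DMSO and from 5.47 to 9.54 RPKM in GW3965. Its log2 fold change was 0.09 (95% interval −0.42 to 0.59), and turned to −0.03 without GW3965 library 5.

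DDIT4 (REDD1), an inhibitor of mTORC1, had the lowest fold change of the members, −0.11 (95% interval −0.31 to 0.09, adjusted p = 0.880), with 7.17 to 9.33 RPKM in DMSO and 6.45 to 8.01 RPKM in GW3965. GDF15, a secreted stress hormone, was at 29.2 ± 3.42 and 27.9 ± 3.83 RPKM (SD, n = 5 each), and in GW3965 library 5, where TRIB3 was highest, it was lowest at 21.5 RPKM. SESN2, a leucine sensor upstream of mTORC1, differed by −0.03.

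The enzymes and transporters of amino acid supply shared their extreme libraries: of the 8 tested, 7 were lowest of all 10 libraries in DMSO library 1 and 7 were highest in GW3965 library 5. PHGDH, which starts serine synthesis, was at 6.52, 9.12, 9.44, 7.72 and 6.64 RPKM in DMSO and at 8.81, 8.35, 8.04, 8.54 and 11.0 RPKM in GW3965. SLC7A5, the light chain of the leucine transporter LAT1, was at 22.7, 33.2, 36.3, 31.3 and 28.4 RPKM in DMSO and at 29.5, 29.9, 33.5, 32.0 and 42.5 RPKM in GW3965. In both genes DMSO library 1 was lowest and GW3965 library 5 highest of all 10. The log2 fold changes were 0.19 (adjusted p = 0.839) and 0.14 (adjusted p = 0.910), and became 0.11 and 0.05 without GW3965 library 5 and 0.12 and 0.04 without DMSO library 1. The other tested enzymes, PSAT1, PSPH, SHMT2 and MTHFD2, lay between −0.05 and 0.10, and the transporters SLC3A2 and SLC7A1 gave 0.03 and 0.04.

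ASNS, which makes asparagine and is a classical ATF4 target, was scarcely expressed, at 0.335 ± 0.0377 RPKM in DMSO and 0.311 ± 0.0454 RPKM in GW3965 (SD, n = 5 each; exact permutation p = 0.460), from 42 to 70 reads a library. AC079781.5, a transcript on the same strand, covers 44.6% of the exon bases of ASNS and had 531 reads over the 10 libraries against 565 for ASNS. Reads in shared exons may have been given to neither or to either gene, so that the level of ASNS is uncertain.

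Of the 14 ER chaperones and folding enzymes, all were tested, 0 were called and 4 had an unadjusted p under 0.05. These 4 were 28.6% of the list, beside 6.99% of all genes tested and 7.86% of those with at least 5 RPKM. Only DNAJB9 stayed under 0.05 without DMSO library 2 or without GW3965 library 4. With library weights, DNAJC3, HSPA5, PDIA3 and PDIA6 joined the 4. The median log2 fold change of the 14 was 0.10, with 13 higher and 1 lower in GW3965. Under quantile normalization 11 were higher and 3 lower, where HYOU1 and MANF turned. CALR (chr19:12938578-12944489) was at 328, 331, 351, 417 and 338 RPKM in DMSO and at 381, 384, 429.8, 443 and 405 RPKM in GW3965. Every GW3965 library lay above 4 of the DMSO libraries, and DMSO library 4 lay among those of GW3965. For CALR the log2 fold change was 0.21 ± 0.08 (SE; 95% interval 0.04 to 0.39), with a limma adjusted p of 0.568 and an exact permutation p of 0.0317.

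CANX, the membrane-bound lectin chaperone that works with CALR on glycoproteins (chr5:179678628-179730925), was at 42.0, 38.5, 35.1, 45.6 and 38.7 RPKM in DMSO and at 44.4, 43.6, 45.7, 46.8 and 44.3 RPKM in GW3965. Here too DMSO library 4 alone reached the level of GW3965. CANX gave a log2 fold change of 0.17 ± 0.07 (SE, adjusted p = 0.610). PDIA3, the disulfide isomerase that these lectins recruit, gave 0.15 (95% interval −0.01 to 0.31, adjusted p = 0.749).

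HSP90B1 (GRP94), the HSP90 of the ER (chr12:103930107-103953645), was at 31.1, 28.0, 26.8, 23.2 and 29.4 RPKM in DMSO and at 32.0, 31.9, 32.5, 30.8 and 29.1 RPKM in GW3965. DNAJB9 (ERdj4), a cochaperone of BiP that restrains IRE1 (chr7:108569568-108574850), was at 4.31, 3.76, 3.79, 3.11 and 3.62 RPKM in DMSO and at 4.45, 4.54, 3.99, 4.25 and 4.20 RPKM in GW3965. In both, DMSO library 4 was the lowest of all 10, the opposite of its place for CALR and CANX. The log2 fold changes were 0.18 ± 0.08 (SE, adjusted p = 0.669) and 0.21 ± 0.08 (SE, adjusted p = 0.614), and both fell without that library, to 0.12 and 0.14.

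HSPA5 (chr9:125234853-125241330) was at 56.1, 51.8, 51.3, 63.3 and 51.5 RPKM in DMSO and at 57.1, 54.2, 59.2, 60.4 and 56.5 RPKM in GW3965. The highest value belonged to DMSO library 4, and the log2 fold change was 0.07 (95% interval −0.08 to 0.22, adjusted p = 0.910). The upper end of this interval, which is not adjusted for the number of members, was a 1.17-fold difference. HYOU1, a nucleotide exchange factor of BiP, and MANF, a secreted ER stress protein, gave 0.01 each, and SDF2L1, which works with ER cochaperones of the DNAJ family, gave −0.03. The rest of the list, DNAJB11, DNAJC3, PDIA4, PDIA6 and CRELD2, lay between 0.04 and 0.13 with adjusted p of 0.817 or more.

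**Figure D3:**
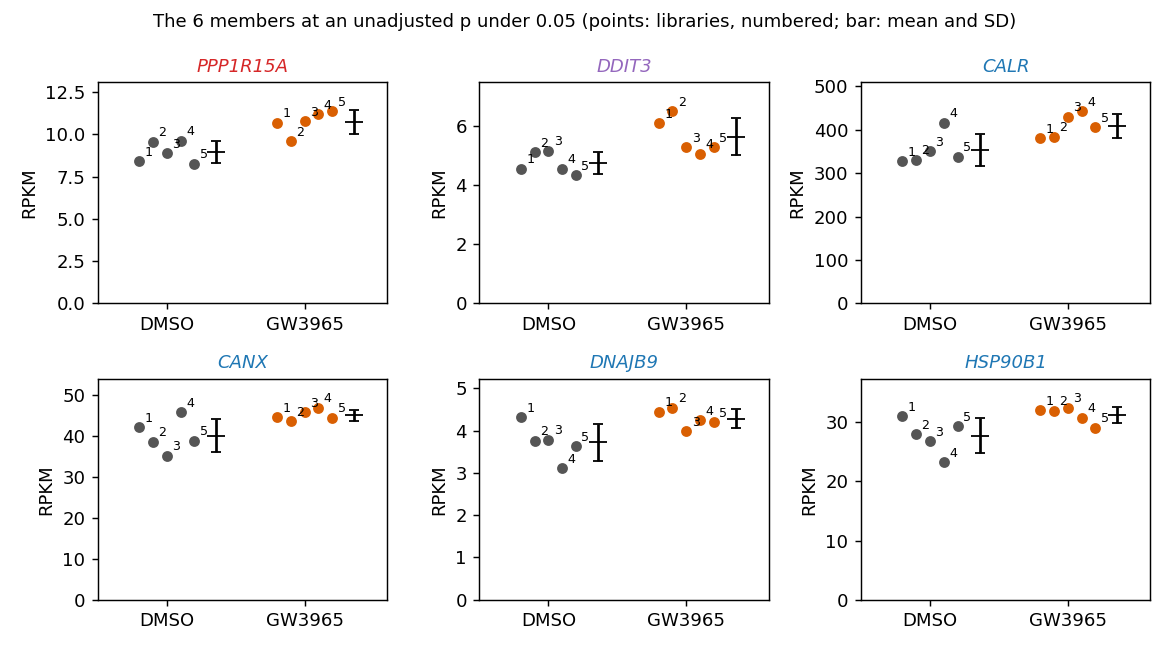
RPKM (vertical, from 0) of the 6 members with an unadjusted p under 0.05, with 1 numbered point for each library of DMSO and GW3965 and a bar for the mean and SD of each group (n = 5). The groups overlap in all 6, and DMSO library 4 lies among the GW3965 libraries for CALR and CANX and is the lowest for DNAJB9 and HSP90B1.

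In ER-associated degradation, which hands misfolded proteins to the proteasome, the median log2 fold change of the 4 genes was 0.04. SEL1L, the adaptor of the ubiquitin ligase, gave 0.12 (95% interval −0.03 to 0.26, adjusted p = 0.809), and its ligase SYVN1 (HRD1) gave −0.02. HERPUD1, whose promoter is printed above, had the smallest SD within groups of the members tested (0.07 on the log2 scale), at 13.0, 12.1, 13.5, 13.9 and 12.2 RPKM in DMSO and 13.5, 13.8, 12.9, 12.5 and 13.1 RPKM in GW3965, with a log2 fold change of 0.02 (95% interval −0.10 to 0.15). EDEM1, a lectin that marks glycoproteins for disposal, gave 0.05. SYVN1 shares 7.24% of its exon bases with FAU on the same strand.

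VLDLR-AS1, on the strand opposite VLDLR, had 1 to 8 reads in each library. Its sum was 23 reads in DMSO and 16 in GW3965 (exact permutation p = 0.349), and at this depth no difference was detectable. VLDLR itself, a lipoprotein receptor and known ATF4 target, was at 0.108 ± 0.0149 RPKM in DMSO and 0.0949 ± 0.0240 RPKM in GW3965 (SD, n = 5 each).

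The ATF4 targets and the chaperones differed little in their response to GW3965. The median log2 fold change was 0.04 for the ATF4 targets and 0.10 for the chaperones, a difference of −0.05. The order of the medians turned when DMSO library 3 was left out (0.02 in favour of the ATF4 targets), and without GW3965 library 5 or DMSO library 1 the median of the ATF4 targets was −0.02 in each case. The median of the chaperones lay between 0.07 and 0.13 when any 1 library was left out. Lists chosen with earlier results known carry no test.

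The lists also had unequal spread between libraries. Within a group, the SD of log2(RPKM + 0.1) had a median of 0.18 over the ATF4 targets and 0.12 over the chaperones. That median was 0.18 over all 20402 genes tested and 0.14 over the 7659 genes tested with at least 5 RPKM. The median half-width of the 95% interval was accordingly 0.24 for the ATF4 targets and 0.16 for the chaperones, so that a change of a given size was harder to see in the former.

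The libraries at the extremes also differed. Of the 14 ATF4 targets tested, 12 were highest of their own group in GW3965 library 5, the exceptions being DDIT4 and GDF15. Their median deviation from the mean over all 10 libraries was 0.30 there, and the other 4 GW3965 libraries lay between −0.03 and 0.01. In DMSO the deviation was −0.22 in library 1 and −0.18 in library 5 but 0.10 in library 3. The chaperones were highest of their own group in library 4 in both groups, 11 of 14 genes each time. Their median deviation was 0.12 in DMSO library 4, while the other 4 DMSO libraries lay between −0.12 and −0.07. In GW3965 it was 0.14 in library 4 and 0.11 in library 3, and library 2 was lowest at −0.05.

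The difference between the lists within a library, ATF4 targets minus chaperones, ran from −0.16 to 0.21 in DMSO and from −0.12 to 0.25 in GW3965, so that the groups overlapped almost whole. The libraries differed in other ways as well. The first principal component over the 500 most variable genes, 48.5% of their variance, was −8.08 in DMSO library 1, −9.90 and −9.18 in GW3965 libraries 1 and 2 and 10.1 in DMSO library 4. The 7SL share was 21.4% in DMSO library 1 and 15.2% in GW3965 library 5. The part of these in the members' spread was not tested.

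**Figure D4:**
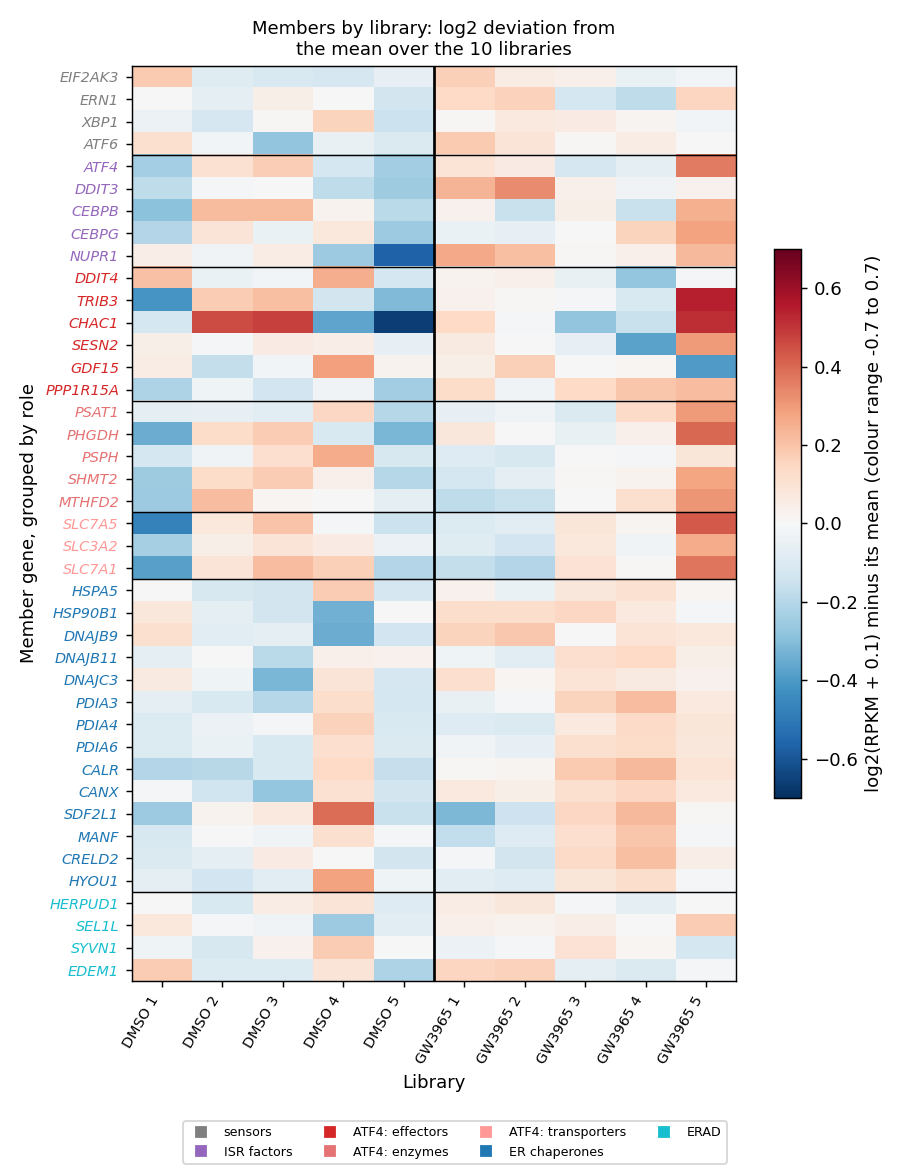
Deviation of log2(RPKM + 0.1) from its mean over the 10 libraries (colour) for the 41 members tested (rows, by role) in each library (columns, DMSO left of the line and GW3965 right of it). Most ATF4 targets are red in GW3965 library 5 and blue in DMSO library 1. Most chaperones are red in library 4 of both groups and in GW3965 library 3.

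**Figure D5:**
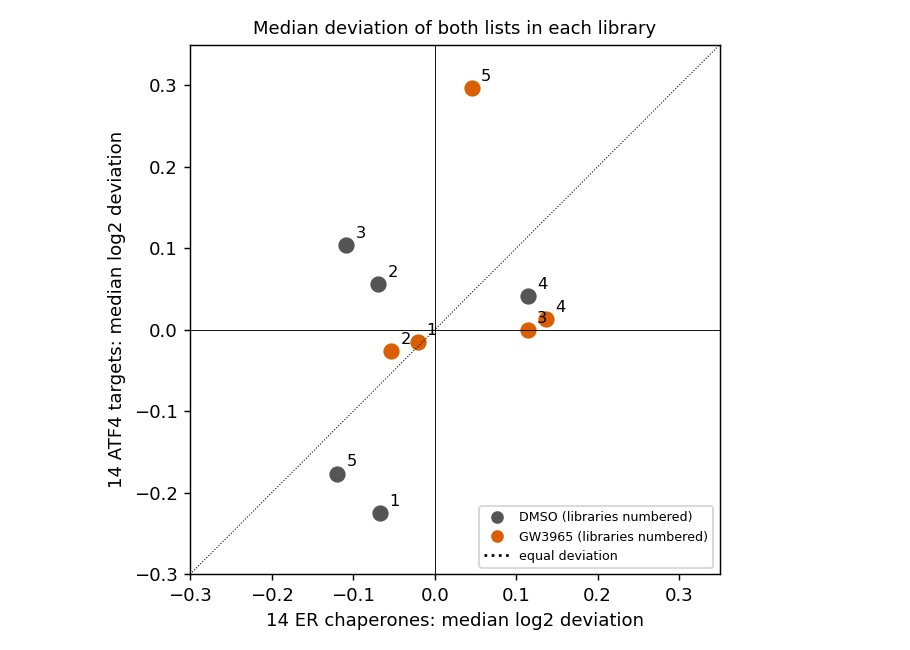
Median log2 deviation of the 14 ATF4 targets (vertical) against that of the 14 ER chaperones (horizontal) in each library, numbered within DMSO and GW3965, with a dotted line at equal deviation. GW3965 library 5 stands apart at 0.30 for the ATF4 targets, and the 2 groups overlap on both axes.

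Of 66 other genes of the same pathways, 61 were tested, 0 were called by limma or by voom and 2 had an unadjusted p under 0.05. These 2 were 3.28% of the 61, below the 6.99% of all genes tested. The median log2 fold change of the 61 was 0.04, with 41 higher and 20 lower in GW3965. Both genes at an unadjusted p under 0.05 are ATF4 targets. CTH, which makes cysteine from cystathionine, was at 0.888, 1.39, 1.40, 1.30 and 1.46 RPKM in DMSO and at 1.33, 1.75, 1.59, 1.57 and 1.90 RPKM in GW3965, and had the highest fold change of these genes, 0.33 (95% interval 0.02 to 0.64, adjusted p = 0.677). In 4 of the 5 GW3965 libraries it lay above all of DMSO. EPRS, the transfer RNA synthetase for glutamate and proline, gave 0.25 (adjusted p = 0.572). The lowest was WFS1, an ER membrane protein, at −0.11 (adjusted p = 0.883).

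By list, 17 of the 21 other ATF4 targets tested had a log2 fold change above 0 in GW3965, with a median of 0.11. For the other ER folding and degradation genes 14 of 23 were higher, with a median of 0.02. The kinases, eIF2 subunits and regulators stood at 6 of 10 with a median of 0.01, and the other stress transcription factors at 4 of 7 with a median of 0.00. The share of members with a log2 fold change above 0, 35 of 41, was 85.4%, and that of the other pathway genes 67.2%. On that side stood 10420 of the 20402 genes tested (51.1%), and 54.8% of the 7659 with a mean of at least 5 RPKM. The count of members on that side was 28 without DMSO library 1 and 38 without DMSO library 4.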

How the data were processed

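RNA of 10 PC3 samples (5 DMSO, 5 GW3965) was sequenced as ribosome-depleted, stranded libraries of 50-base single reads; per the labels the molecule is polyA RNA, while the protocol describes total RNA. The authors deposited 1 table of RPKM values per gene and library. The submitters' processing notes name hg38, HISAT2 2.1.0, HTSeq 0.11.2, DESeq2 1.22.2, bcl2fastq 2.20.0.422 and cutadapt; the study's methods name a mouse build, whereas all gene IDs are human. Overlap and strand settings of the counting are not given in the sources used here.

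Whole reads were recovered from the RPKM values: of the non-zero values, 99.98% were whole reads (tolerance 1e-05 reads). The library scaling of the deposited values equalled median-of-ratios size factors, so a fold change is relative to the typical gene. The 20402 genes whose mean reached 0.5 RPKM were fitted with limma 3.58.1 in R 4.3.3 (lmFit, eBayes with trend) on log2(RPKM + 0.1), by two-sided tests; p-values were adjusted by Benjamini-Hochberg and called under 0.05. Fold changes on this scale understate those of low genes. Members below the filter were compared by an exact permutation test over all labellings, which is also given for some of the members tested. Means ± SD are on RPKM. The 44 members, their lists and the 66 other pathway genes were chosen with earlier results of these data known. All members are named, with the called, the highest and the lowest of the other pathway genes, and those at 5 or fewer at an unadjusted p under 0.05. Promoters are from RefSeq, gene models from GENCODE 29; no build conversion was made. The fit was tested on simulated data. No library was left out, and the counts of any 2 libraries differed by a chi-square of at least 6.63 per degree of freedom, so no pair was within sampling noise. Alternatives were other pseudocounts, filters and normalization, no trend, library weights, a replicate block, voom on the recovered reads, 2 covariates and leaving out each library. Some of the marker genes examined are not reported here.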

Additional observations from a re-analysis of the deposited data

Results flagged for a closer look

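For members in DMSO or in GW3965, the gap between the most extreme library and its nearest neighbour was divided by the range of the group on log2(RPKM + 0.1). The groups examined numbered 86, which does not cover every one of the 44 members in both. In 8 of 86 groups of 5 libraries this ratio passed Dixon's 95% limit of 0.71; chance alone flags about 1 in 20 groups, or 4.3 of 86. EIF2AK3 was high in DMSO library 1 (ratio 0.810), at 1.36 RPKM against 1.09 to 1.14 RPKM in the others. In DMSO library 4, 3 chaperones were high. CALR was at 417 RPKM against 328 to 351 RPKM (0.716), HYOU1 at 27.1 RPKM against 20.3 to 21.9 RPKM (0.742) and PDIA6 at 39.9 RPKM against 34.2 to 35.6 RPKM (0.725). The 4 remaining flags lay in GW3965 library 5. TRIB3 was high there, at 28.0 RPKM against 17.8 to 19.6 RPKM (0.782), as were PHGDH, at 11.0 RPKM against 8.04 to 8.81 RPKM (0.713), and SEL1L, at 12.3 RPKM against 10.9 to 11.2 RPKM (0.770). GDF15 was low there, at 21.5 RPKM against 28.4 to 31.9 RPKM (0.711). The members of a list vary together, so flags in the same library are not independent of each other.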

How the results depend on the processing

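Under the 21 alternatives, the count of members called stayed at 0 of 41 except with the first principal component as a covariate, where PPP1R15A was called (count 1, log2 fold change 0.28, adjusted p = 0.0296); there 155 genes were called in all, against 32. The count at an unadjusted p under 0.05, 6 in the fit as reported, was 10 with library weights, 9 with the principal component as a covariate, 7 in voom on the recovered reads, 5 with the 7SL share as a covariate or quantile normalization, and 3 to 7 when a library was left out. The replicate numbers as a set did not pair the samples (correlations of same-numbered libraries −0.138 to 0.160). Number 4 was an exception, since the libraries 4 of both groups were each other's best match (0.160). With a replicate block 0 members were called, 8 had an unadjusted p under 0.05 and 16 genes were called in all, against 32. The share of members above 0 was 35 of 41 as reported and 32 of 41 under quantile normalization. The medians of both lists and their difference moved by less than the spread between libraries under every alternative. The cause of these shifts was not tested.

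Of the 41 members, 14 changed the sign of a fold change that was not called in any setting. CEBPB stood at −0.016 under quantile normalization, −0.0341 with library weights, −0.000789 in voom and −0.045 with the 7SL share. MANF stood at −0.0168 and HYOU1 at −0.021 under quantile normalization. CHAC1 stood at −0.058 with library weights and −0.067 with the 7SL share. SDF2L1 turned to 0.058 with library weights, 0.028 with the principal component and 0.00387 with the 7SL share, and SYVN1 to 0.021 with library weights and 0.010 with the 7SL share. When each library was left out in turn, the fold changes ran from −0.069 to 0.059 for CEBPB, −0.067 to 0.22 for CHAC1, −0.12 to 0.023 for GDF15, −0.000668 to 0.049 for HERPUD1, −0.024 to 0.081 for HYOU1, −0.033 to 0.058 for MANF, −0.038 to 0.093 for MTHFD2, −0.083 to 0.012 for PSPH, −0.099 to 0.063 for SDF2L1, −0.11 to 0.062 for SESN2, −0.018 to 0.095 for SHMT2, −0.025 to 0.072 for SLC3A2, −0.045 to 0.10 for SLC7A1 and −0.056 to 0.016 for SYVN1. ATF3, ASNS and VLDLR-AS1 are limited by depth; the other members had at least 88 reads in every library.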

Other observations

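The ratio of ATF4 to HSPA5 in RPKM ran from 0.653 to 0.988 in DMSO and from 0.699 to 1.02 in GW3965, so that the groups overlapped. The ratio of TRIB3 to ATF4 stayed between 0.377 and 0.485 over all 10 libraries. That of CHAC1 to ATF4 was lowest in DMSO library 5 and highest in DMSO library 2, at 0.189, and lay between 0.132 and 0.165 in the GW3965 libraries. These ratios describe the 10 libraries, their size depends on the gene lengths behind the deposited values, and they were not tested.

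Reads of near-identical copies bear on further members. PSPHP1 was listed with 13.9% of the reads of PSPH, MTHFD2P7 with 5.77% of those of MTHFD2, and ASNSP4 with 32.0% of the few reads of ASNS.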
